A study of Mus musculus with 6 samples.

Results

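Heparan sulfate genes were followed in mouse embryonic fibroblasts that carried either a control hairpin or a hairpin against ARF. The members were 35 genes that start, polymerise, sulfate or edit heparan sulfate or encode the core proteins that carry it. They were chosen by gene symbol, with the single-gene probeset of highest mean signal standing for each gene. Of the 35, 34 had such a probeset, out of 19288 genes on the array, and Ndst1 was not analysed here. Each of the 34 had 1 probeset. A total of 33 lay above the detection level (the 25th percentile of an array's signals) on at least 3 of the 6 arrays and were tested with 15145 genes in all. The remaining gene, Ndst4, an N-deacetylase and N-sulfotransferase, lay below that level on all 6 arrays, so no fold is given for it.

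The control group was 3 arrays of fibroblasts with the construct shSCR, and the other group 3 arrays with the construct shARF. The cells are named dp53R in the title of the series, and Ras stands in every sample title. Neither word is explained in the labels, and strain, age, p53 genotype and the number of hairpins per target are not given in the sources used here. The cells of both groups were grown in DMEM with fetal bovine serum and harvested with trypsin, and RNA was amplified from 50 ng of total RNA. The replicates are labelled biological, with no word on separate cultures or animals, so p-values measure only the spread between these samples, which may be technical. ARF is a tumour suppressor made from the Cdkn2a locus. Cdkn2a fell from 530.0 ± 12.2 (SD, n = 3) in shSCR to 285 ± 30.7 in shARF, by 0.90 on the log2 scale (limma, adjusted p = 0.00459). The value is that of 1 probeset for the locus, and which of its transcripts the probeset reads was not examined.

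Heparan sulfate is a long sugar chain built in the Golgi on a core protein. Xylosyltransferases begin a linker on the core protein, EXT proteins extend the chain, and sulfotransferases then modify it in patches. The pattern of sulfate groups sets which growth factors, chemokines and matrix proteins bind the chain, and fibroblasts display such chains on syndecans and glypicans and lay them down in the matrix. Outside the cell the sulfatases SULF1 and SULF2 clip 6-O-sulfate groups from finished chains, and heparanase cuts the chains themselves.

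The stretch before the start site is shown for the called genes with an entry in the RefSeq promoter table, because these genes passed the test. Each sequence is the 250 bases before the most upstream start listed for the gene, on assembly GRCm38.p6, read 5′ to 3′ on the gene's strand. Capitals mark any match, on either strand, to 5 motifs: the interferon response core GAAANNGAA, the GAS element TTCNNNGAA, the GC box GGGCGG, the TATA box TATAAA and the E-box CACGTG. The Sulf2 window is chr2:166155684-166155933 on the minus strand, the Extl2 window chr3:116007199-116007448 on the plus strand and the Ndst3 window chr3:123672478-123672727 on the minus strand.
Sulf2: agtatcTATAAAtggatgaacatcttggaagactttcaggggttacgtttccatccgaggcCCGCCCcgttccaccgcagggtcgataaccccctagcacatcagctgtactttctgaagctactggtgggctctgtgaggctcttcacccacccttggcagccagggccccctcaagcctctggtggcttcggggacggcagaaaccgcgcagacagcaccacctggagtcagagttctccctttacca
Extl2: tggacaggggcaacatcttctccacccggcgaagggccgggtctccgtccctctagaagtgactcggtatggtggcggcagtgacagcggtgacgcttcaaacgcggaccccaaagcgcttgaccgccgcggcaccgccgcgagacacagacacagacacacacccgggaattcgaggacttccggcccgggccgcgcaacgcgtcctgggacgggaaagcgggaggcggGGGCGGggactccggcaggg
Ndst3: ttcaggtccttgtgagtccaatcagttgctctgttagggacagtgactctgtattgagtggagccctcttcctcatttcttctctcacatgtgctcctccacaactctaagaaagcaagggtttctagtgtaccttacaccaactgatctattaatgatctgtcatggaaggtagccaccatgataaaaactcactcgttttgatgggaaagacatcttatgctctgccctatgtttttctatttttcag

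The Sulf2 window held 1 TATA box and 1 GC box, the Extl2 window held 1 GC box, and the Ndst3 window held no match to the 5 motifs. Their GC contents were 57.2%, 68.8% and 42.4%. None of these 3 windows held the interferon response core or the GAS element. Over the 26 members with an entry, 20 (76.9%) held a GC box, where 32.7% of all 32851 windows of that length did. The interferon response core stood in 1 of the 26 (3.85%, against 7.13% of all windows), that of Extl1, and the GAS element in 0 (against 7.02%). The TATA box stood in 2 of the 26 (7.69%, against 12.4%) and the E-box in 2 (against 6.02%). The median GC content was 66.0% over the members and 52.4% over all windows, and the windows of all genes include many RNA genes and pseudogenes. These matches describe letters in the windows, and the arrays do not show which start was used. The Ndst3 window ends in a run rich in T followed by CAG, and whether its listed start begins transcription was not examined.

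Sulf2 rose about 2-fold in shARF cells and had the smallest p among the members. In all, 4 of the 33 tested members passed the test at an adjusted p under 0.05: Sulf2, Ndst3 and Gpc1 rose, Extl2 fell, and 29 did not pass. Over all genes tested, 4.01% passed (1.62% higher and 2.38% lower), and over the members 12.1%. The groups did not overlap for 16 members, 6 higher and 10 lower in shARF, or 48.5%, where 28.6% of all genes did not overlap (12% higher and 16.6% lower). With no adjustment, 13 members had a p under 0.05 (39.4%), 5 higher and 8 lower, against 22.2% of all genes. On the log2 scale the median difference was -0.10 over the members and -0.01 over all genes tested, and 21 of the 33 differences were negative, where 53.2% of all genes had a negative difference. The members were chosen with earlier results of these data known, so these shares do not test whether the group differs from other genes. In RNA from a whole culture, fewer cells of a type and less RNA per cell cannot be told apart.

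**Figure D1:**
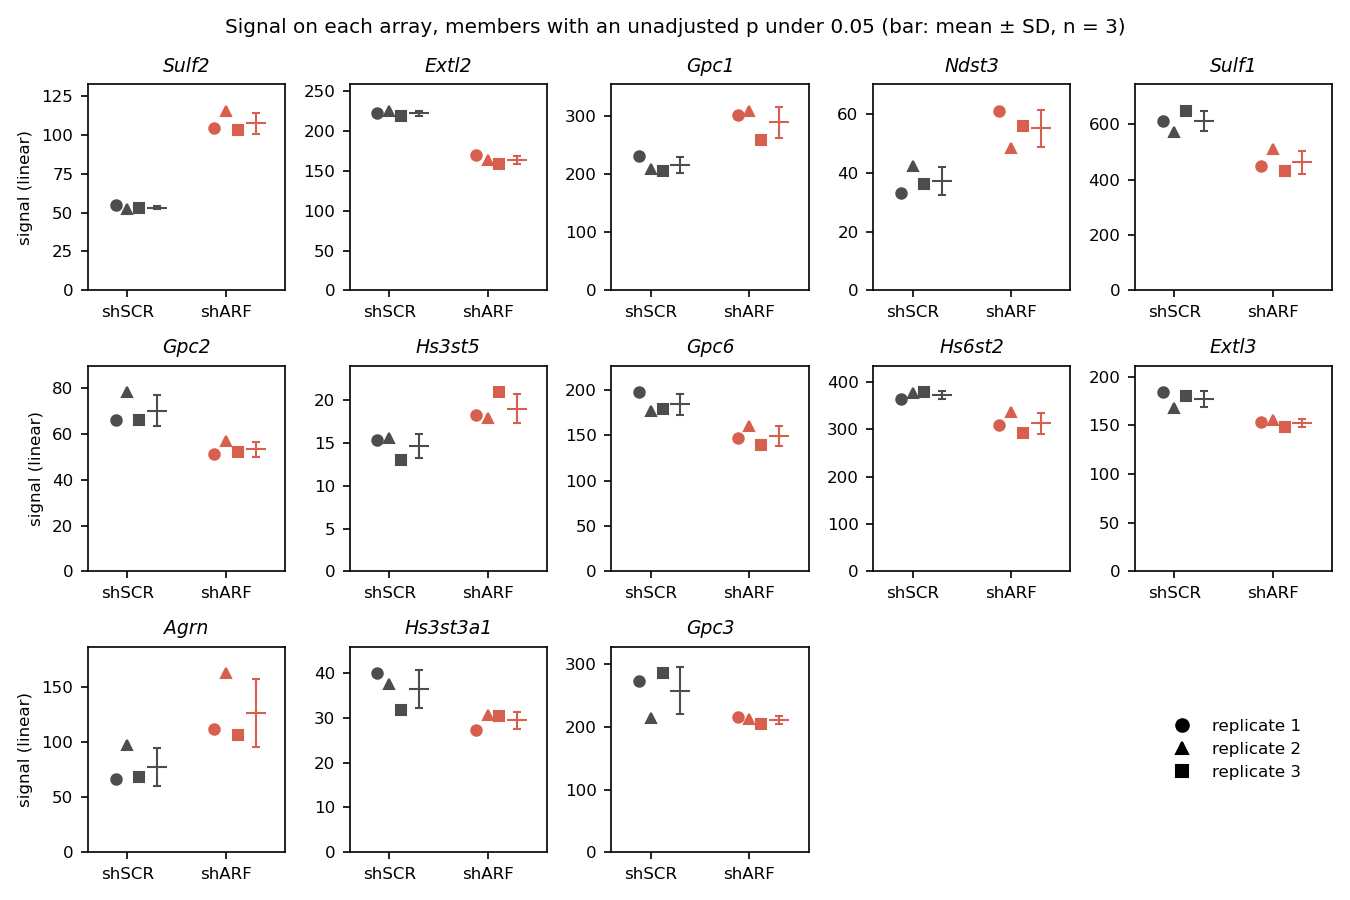
Linear signal (y axis) on each array for the 13 members with an unadjusted p under 0.05, in shSCR (grey) and shARF (red). Symbols mark the replicate number, and the bar with whiskers is the mean ± SD over 3 arrays. Sulf2 lies at 52.1 to 54.5 in shSCR and 103 to 115 in shARF, while for Gpc3 the groups overlap.

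The 2 extracellular sulfatase genes differed in opposite directions. Sulf2 gave signals of 54.5, 52.1 and 52.9 on the shSCR arrays and 104, 115 and 103 on the shARF arrays. Every shARF array lay far above every shSCR array, and the arrays within each group lay close together. The log2 signal of Sulf2 rose by 1.01 ± 0.067 (SE), or 2.01-fold (limma, adjusted p = 0.00154). It ranked eighth by p among the 15145 genes and was the last by size of the 46 called genes that rose at least 2-fold. It passed in each of the 13 other limma settings (adjusted p from 4.45e-05 to 0.0161) and without any 1 array.

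Sulf1, which encodes the other 6-O-endosulfatase, gave 611, 573 and 646 in shSCR and 449, 509 and 430.1 in shARF. All shARF arrays lay below all shSCR arrays, with a gap smaller than that of Sulf2 against the spread of the arrays. The difference was -0.40 ± 0.084 on the log2 scale (95% interval -0.60 to -0.20), just short of the threshold (limma, adjusted p = 0.0509). It passed in 4 of the 13 other limma settings and in SAM, with adjusted p from 0.00578 to 0.158. SAM here is a re-implementation of the significance analysis of microarrays, the method that the series design names. The 95% interval for Sulf2, 0.85 to 1.17, lay wholly above 0 and that for Sulf1 wholly below. Hpse, the gene of heparanase, gave 24.6, 30.3 and 21.9 in shSCR and 28.7, 25.4 and 20.8 in shARF. Its groups overlapped, and the interval for the difference was wide, from -0.39 to 0.32.

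Among the enzymes that start and extend the chain, Extl2 fell. EXTL2 adds an amino sugar to the linker and can end a chain instead of extending it. Extl2 gave 222, 225 and 219 in shSCR and 169, 163 and 159 in shARF. The arrays of each group lay within a narrow band, and the bands were well apart. The log2 signal of Extl2 fell by 0.44 ± 0.057 (SE), or 1.35-fold (limma, adjusted p = 0.0114). The call was lost without shSCR replicate 1 or shSCR replicate 3 (adjusted p = 0.0531 and 0.0529) and held in each other setting run (adjusted p from 0.00169 to 0.0449).

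Extl3, whose product begins heparan sulfate on the linker, gave 184, 168 and 179.7 in shSCR and 154, 155 and 148 in shARF. The groups did not overlap, and the difference of -0.22 ± 0.062 did not pass (limma, adjusted p = 0.11). Ext1 and Ext2 encode the subunits of the main polymerase. They differed by -0.10 each, with 95% intervals of -0.24 to 0.03 and -0.27 to 0.07. Extl1, another EXT-like gene, differed by 0.08 (-0.16 to 0.31). The xylosyltransferase genes Xylt1 and Xylt2, which put the first sugar on the core protein, differed by 0.06 (-0.13 to 0.24) and -0.20 (-0.43 to 0.02). Of these 7 genes, 1 fell, 0 rose and 5 had a negative difference.

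**Figure D2:**
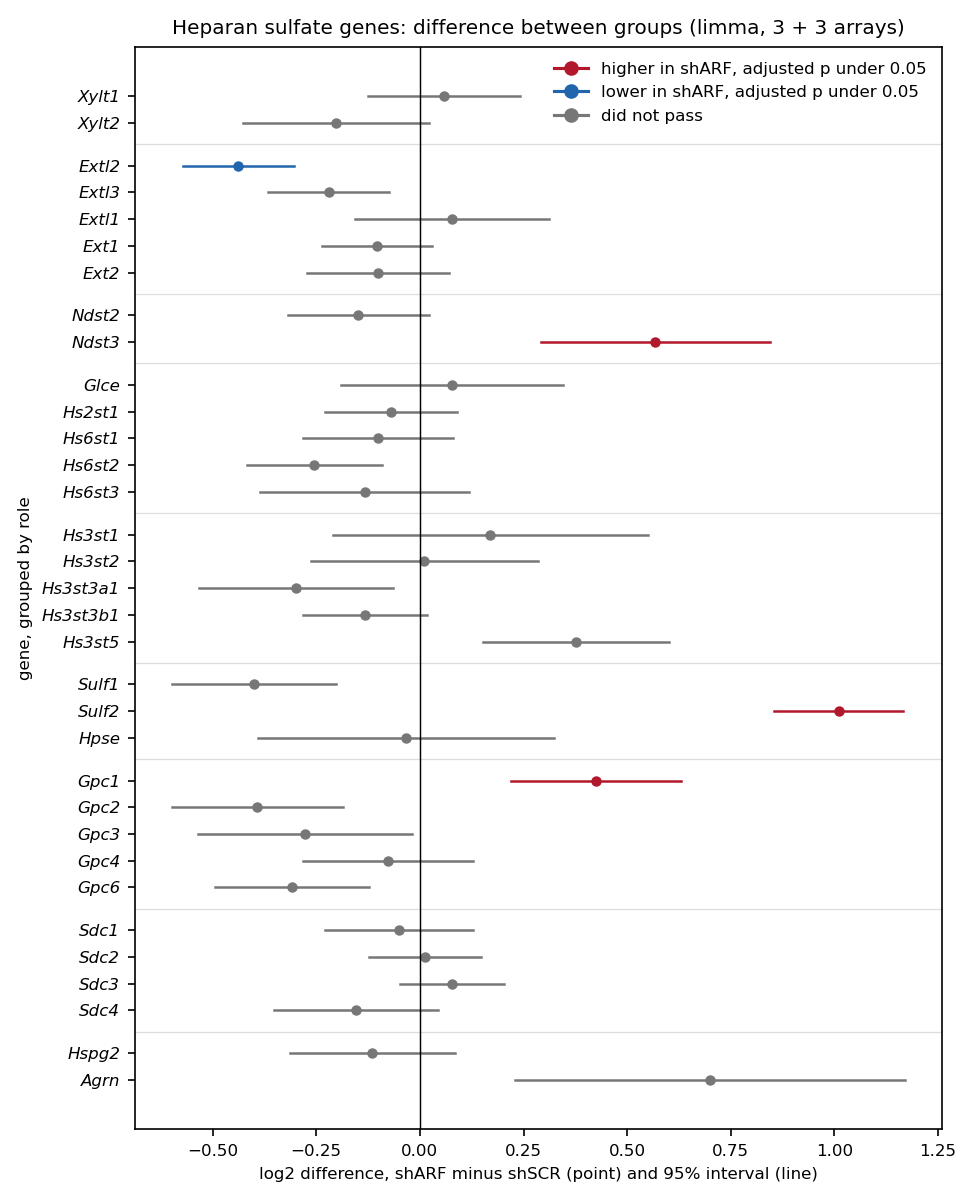
Difference in mean log2 signal (x axis, shARF minus shSCR) of the 33 tested members, grouped by role, with the 95% interval from limma as a line. Red marks genes that rose, blue the gene that fell, and grey those that did not pass; Sulf2 stands farthest to the right at 1.01 and Extl2 farthest to the left at -0.44.

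Ndst3, which encodes a brain-enriched N-deacetylase and N-sulfotransferase, rose from a low signal. These enzymes swap acetyl for sulfate on the amino sugars, the step that opens the chain to later sulfation. Ndst3 gave 33.0, 42.4 and 36.3 in shSCR and 61.0, 48.6 and 56.0 in shARF. The highest shSCR array and the lowest shARF array lay close to each other, at 42.4 and 48.6. Ndst3 rose by 0.57 ± 0.118 on the log2 scale, or 1.48-fold, and just passed (limma, adjusted p = 0.0492). The call held in 1 of the 6 fits with 1 array left out, that without shSCR replicate 2 (adjusted p = 0.048), and was lost without each of the other 5 arrays (range over all alternative settings 0.0167 to 0.152). Ndst2, a widely expressed member of the family, differed by -0.15 (95% interval -0.32 to 0.02). Ndst4 measured 8.71 ± 0.529 in shSCR and 11.1 ± 0.763 in shARF, below the detection level of 14.1 to 14.9.

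Genes of epimerisation and of 2-O- and 6-O-sulfation held 0 calls among 5 in limma and 0 in SAM, with 1 at a raw p under 0.05. Hs6st2, one of the enzymes that add the 6-O-sulfate that the SULF enzymes remove, gave 364, 376 and 378 in shSCR and 309, 336 and 293 in shARF. The shARF arrays all lay below the shSCR arrays, and the difference of -0.25 ± 0.069 did not pass (limma, adjusted p = 0.102). It was called in 1 of the 13 other limma settings, that with a variance trend (range over the settings 0.0343 to 0.246). The related genes Hs6st1 and Hs6st3 differed by -0.10 (95% interval -0.28 to 0.08) and -0.13 (-0.39 to 0.12). Hs2st1, the 2-O-sulfotransferase gene, differed by -0.07 (-0.23 to 0.09), and Glce, the gene of the epimerase that makes iduronic acid, by 0.08 (-0.19 to 0.34). For Hs6st1, Hs6st3, Hs2st1 and Glce the groups overlapped.

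The 3-O-sulfotransferases, which add the rarest modification, held 0 calls among 5 in limma, with 2 at a raw p under 0.05, and 1 (Hs3st5) in SAM. Hs3st5 gave 15.3, 15.5 and 13.1 in shSCR and 18.2, 17.9 and 20.9 in shARF. The groups did not overlap, but 1 shSCR array lay below the detection level and the others just above it. Its difference of 0.38 ± 0.096 did not pass (limma, adjusted p = 0.0856). Hs3st3a1 gave 39.8, 37.6 and 31.6 in shSCR and 27.2, 30.6 and 30.4 in shARF. The lowest shSCR array stood just above the highest shARF array, and the difference of -0.30 ± 0.1 did not pass (limma, adjusted p = 0.155). Hs3st3b1 differed by -0.13 (95% interval -0.28 to 0.02). Hs3st3a1 and Hs3st3b1 have near-identical catalytic domains, so their probes may read each other and their single values are uncertain. Hs3st1, whose product makes the antithrombin-binding site, differed by 0.17 (-0.21 to 0.55), and Hs3st2 by 0.01 (-0.26 to 0.28).

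Of the 5 glypicans, core proteins held to the membrane by a lipid anchor, Gpc1 rose and the other 4 had negative differences that did not pass. Gpc1 gave 231, 209 and 206 in shSCR and 302, 308 and 259 in shARF. All shARF arrays lay above all shSCR arrays, with shARF replicate 3 nearest to them. Gpc1 rose by 0.42 ± 0.087 on the log2 scale, or 1.34-fold (limma, adjusted p = 0.0477). The call held in 1 of the 6 fits with 1 array left out, that without shARF replicate 3 (adjusted p = 0.0449), and was lost without each of the other 5 (range over all alternative settings 0.00772 to 0.152).

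Gpc2, a glypican best known from developing neurons, gave 66.4, 78.2 and 66.2 in shSCR and 51.2, 57.2 and 52.0 in shARF. Its groups did not overlap, and the difference of -0.39 ± 0.088 missed the threshold (limma, adjusted p = 0.0603). SAM and 3 of the 13 other limma settings called it (range over the settings 0.0314 to 0.163). Gpc6, a glypican of mesenchymal tissue, gave 197, 177 and 178 in shSCR and 147, 161 and 139 in shARF. It too had groups apart and a difference that did not pass (-0.31 ± 0.079; limma, adjusted p = 0.0886). It was called in 2 of the 13 other limma settings (range over the settings 0.0368 to 0.225). Gpc3, a glypican that restrains hedgehog signalling and lies beside Gpc4 on the X chromosome, gave 273, 215 and 285 in shSCR and 216, 213 and 204 in shARF. Here shSCR replicate 2 lay within the shARF range, and the difference was -0.28 (95% interval -0.53 to -0.02; limma, adjusted p = 0.215). Gpc4 gave 512, 515 and 551 in shSCR and 457, 561 and 484 in shARF, overlapping, with a difference of -0.08 (-0.28 to 0.13).

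The syndecans, core proteins with a transmembrane anchor, held 0 calls among 4 in limma and SAM and 0 at a raw p under 0.05. They had the narrowest range of differences of any role with more than 3 members, -0.15 to 0.08. Sdc2, the syndecan typical of fibroblasts, gave 699, 720.2 and 726 in shSCR and 711, 707 and 747 in shARF. The groups overlapped, and the 95% interval of the difference, -0.12 to 0.15, allowed only a small change. Sdc1, typical of epithelia, differed by -0.05 (-0.23 to 0.13), and Sdc4, a focal adhesion syndecan, by -0.15 (-0.35 to 0.04). Sdc3 gave 231, 230.0 and 234 in shSCR and 242, 245 and 246 in shARF, so that the groups did not overlap. The difference of 0.08 (-0.05 to 0.20) was small (limma, adjusted p = 0.451).

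The secreted core proteins differed from each other in sign. Agrn, which encodes agrin, the basement membrane proteoglycan that gathers acetylcholine receptors at the nerve-muscle junction, gave 66.9, 97.5 and 68.6 in shSCR and 111, 162 and 106 in shARF. Replicate 2 was highest in both groups, and the groups did not overlap. The difference of 0.70 ± 0.2 did not pass (95% interval 0.23 to 1.17; limma, adjusted p = 0.113). SAM and 2 of the 13 other limma settings called it (range over the settings 0.0148 to 0.264). Hspg2, which encodes perlecan, gave 774, 685 and 686 in shSCR and 667, 605 and 710.2 in shARF. Its groups overlapped, with a difference of -0.11 (-0.31 to 0.08).

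**Figure D3:**
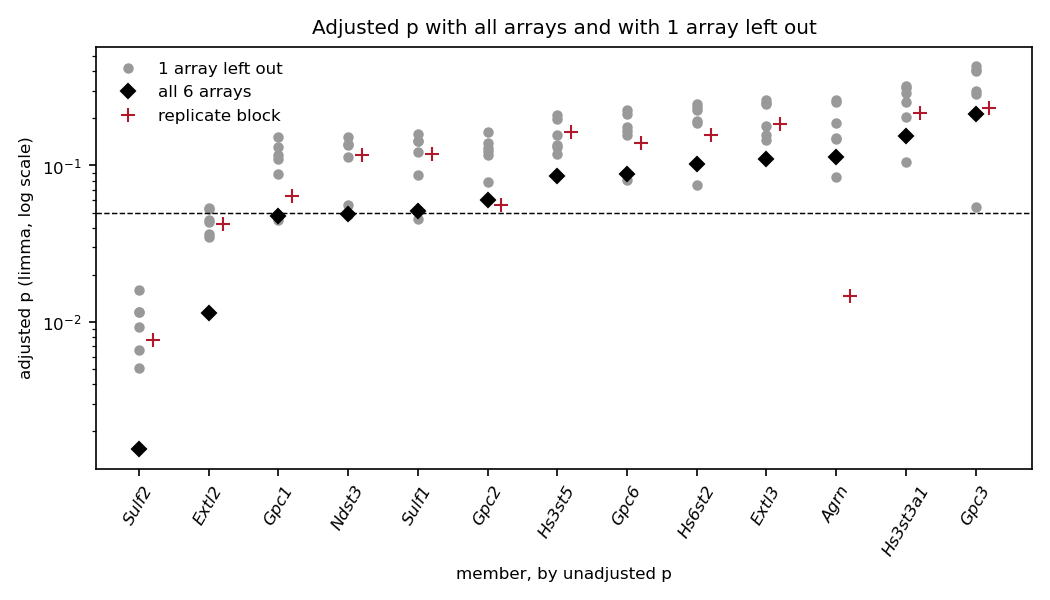
Adjusted p in limma (y axis, log scale) of the 13 members with an unadjusted p under 0.05, with all 6 arrays (diamonds), with 1 array left out (grey circles) and with the replicate number as a block (crosses). The dashed line marks 0.05; Sulf2 lies below it in every fit shown, and Extl2 reaches 0.0531.

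Other genes of the pathway, and genes linked to it, were read in 6 lists of 87 genes, of which 81 were tested. Among the 81 there was 1 rise and there were 5 falls, with 75 not passing, or 7.41% called against 4.01% of all genes. All these calls lay in the growth factor and receptor list and the chondroitin and dermatan sulfate list. The other lists held 0. The lists too were chosen with earlier results of these data known, so the share called is not a test of them. Genes of the linker between core protein and chain held 0 calls among 5 tested, 0 in SAM, and 1 (higher) with a raw limma p under 0.05. B3gat3, which adds the last sugar of the linker, differed by 0.33 ± 0.103 (limma, adjusted p = 0.136), and B4galt7, which adds the first galactose, by 0.16 ± 0.073 (limma, adjusted p = 0.276). Genes that supply the sulfate donor and sugar nucleotides held 0 calls among 12 in limma, 2 in SAM and 4, all lower, with a raw limma p under 0.05. Slc35b2, the Golgi carrier of the sulfate donor, gave 99.7, 107 and 96.0 in shSCR and 83.4, 81.8 and 73.6 in shARF, a difference of -0.34 ± 0.075 that did not pass (limma, adjusted p = 0.0571). Ugdh, whose product makes UDP-glucuronic acid, differed by -0.27 ± 0.062 (limma, adjusted p = 0.0648), also with groups apart.

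The list for lysosomal breakdown of heparan sulfate also held Sumf1 and Sumf2, which do not themselves take the chain apart. It had 0 calls among 9 in limma and 1 (Sumf1) in SAM, with 1 higher and 2 lower by raw p under 0.05. Sumf1, whose product activates all sulfatases including the SULF enzymes, gave 152, 161 and 174 in shSCR and 124, 130.4 and 106 in shARF. Its groups did not overlap, and the difference of -0.44 ± 0.096 did not pass (limma, adjusted p = 0.0565). Idua, the gene of a lysosomal iduronidase, differed by 0.31 ± 0.084 (limma, adjusted p = 0.0969). Other enzymes and carriers of heparan sulfate held 0 calls among 9 in limma and 1 in SAM, with 2 higher and 1 lower by raw p under 0.05. Col18a1, a collagen that carries heparan sulfate, differed by 0.42 ± 0.093 (limma, adjusted p = 0.0599), and Tgfbr3, the TGF-beta co-receptor betaglycan, by -0.30 ± 0.084 (limma, adjusted p = 0.108).

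Growth factors and receptors that work with heparan sulfate held 4 of the 6 calls in these lists, and all 4 fell. Of 25 tested, 4 fell, 0 rose and 21 did not pass, where 2.38% of all genes fell. This list was chosen with earlier results of these data known, so the share is no test of it. The median log2 difference of the 25 was -0.09. By raw p under 0.05, 4 were higher (Fgfr1, Fgfr4, Met and Fgfbp1) and 6 lower (the 4 called genes, Fgf10 and Slit2). SAM called 5, the 4 called genes and Fgfbp1, a carrier protein of FGFs. Of all 15145 genes tested, SAM called 997, and 22.2% had a raw p under 0.05 in limma. Fgfbp1 was higher by 0.41 ± 0.096 and did not pass in limma (adjusted p = 0.0689). Fgf5, a growth factor of the FGF family, gave 75.9, 84.1 and 75.0 in shSCR and 47.2, 55.4 and 56.9 in shARF, and fell by 0.56 ± 0.091 (limma, adjusted p = 0.0222). Fgf7, the keratinocyte growth factor made by fibroblasts, gave 1197, 1116 and 1227 in shSCR and 906, 933 and 854 in shARF, and fell by 0.39 ± 0.067 (limma, adjusted p = 0.0267). In both genes the groups lay clearly apart.

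Fgfr2, an FGF receptor, gave 95.5, 93.7 and 102 in shSCR and 67.9, 80.1 and 66.3 in shARF, and fell by 0.44 ± 0.087 (limma, adjusted p = 0.0408). The FGF receptor gene Fgfr1 gave 540, 525 and 554 in shSCR and 615, 647 and 619 in shARF. Its difference of 0.22 ± 0.058 did not pass (limma, adjusted p = 0.0977). Mdk, which encodes the heparin-binding factor midkine, gave 123, 100.2 and 101 in shSCR and 75.8, 68.2 and 80.3 in shARF, and fell by 0.53 ± 0.102 (limma, adjusted p = 0.0408). The call of Fgf5 was lost without any 1 shSCR array or shARF replicate 2, that of Fgf7 without any array but shSCR replicate 2, that of Fgfr2 without any but shARF replicate 2, and that of Mdk without each of the 6 (highest adjusted p 0.0746, 0.104, 0.139 and 0.0996).

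In the chondroitin and dermatan sulfate branch, which grows on the same linker, 1 of 21 rose, 1 fell and 19 did not pass. SAM called 2, and by raw p under 0.05, 2 were higher and 3 lower. Of all genes tested, 1.62% rose, 2.38% fell and 22.2% had a raw p under 0.05 (limma). Cspg4, the membrane proteoglycan NG2, gave 129, 112 and 118 in shSCR and 182, 177 and 176 in shARF, and rose by 0.58 ± 0.071 (limma, adjusted p = 0.00963). Its call was lost without shSCR replicate 3 (adjusted p = 0.0516, the highest of its settings). Chst12, a chondroitin 4-O-sulfotransferase gene, gave 302, 312 and 301 in shSCR and 257, 239 and 228 in shARF, and fell by 0.34 ± 0.066 (limma, adjusted p = 0.0402). That call was lost on leaving out each of the 6 arrays (adjusted p up to 0.122).

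**Figure D4:**
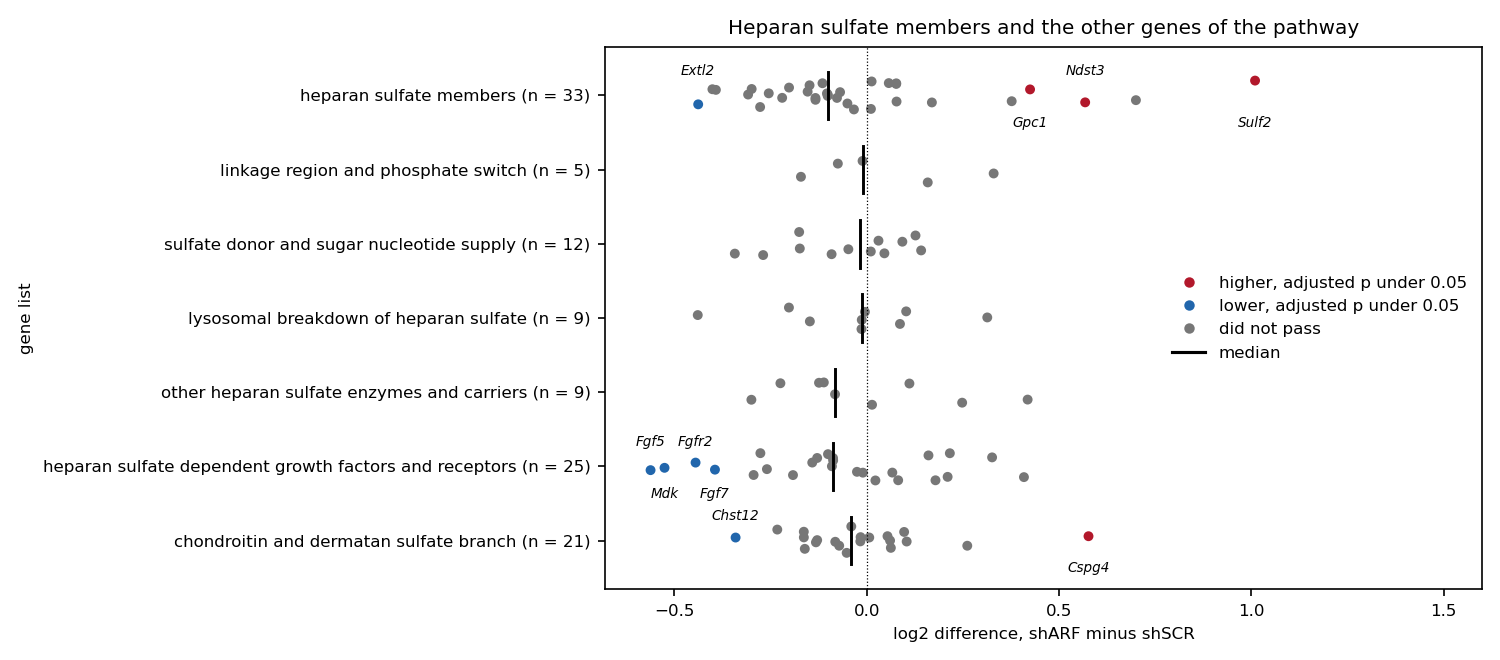
Difference in mean log2 signal (x axis, shARF minus shSCR) of each tested gene, 1 row for the 33 members and 1 for each of the 6 pathway lists, with the median of each as a black line. Called genes are named and coloured. The growth factor row holds 4 of the 5 genes of these lists that fell, and the medians lie between -0.10 and -0.01.

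The labelled cell type was set against lists of markers. A marker counted as detected if above the 25th percentile of an array's signals on at least 3 arrays. Of all 26851 probesets, 20310 met that level, as did 7 of 7 neural markers, so detection alone cannot identify the cells. Of the 12 fibroblast markers, 11 had a probeset and all 11 were detected. Of these, 0 passed in limma and 1 in SAM, with 1 higher and 3 lower by raw p under 0.05, and their summed signals were 25514 to 27436 (shSCR) and 26264 to 27444 (shARF). The 2 with the smallest p were Thy1 (-0.38; limma, adjusted p = 0.0874) and Pdgfra (-0.22; limma, adjusted p = 0.155). Of the other cell type lists, 1 of 7 tested epithelial markers rose (Krt18, from 129 ± 11.0 to 250.2 ± 63.8), 1 of 7 neural markers (Nefl, from 97.0 ± 8.89 to 234 ± 40.2) and 1 of 3 leukocyte markers (Cd53, from 28.7 ± 2.72 to 45.7 ± 8.12). By raw p under 0.05, 3 epithelial markers were higher and 0 lower, and 2 neural markers higher and 1 lower. Among leukocyte markers, 1 was higher and 1 lower. SAM called 2 epithelial, 2 neural and 1 leukocyte marker. Of all genes tested, 1.62% rose and 22.2% had a raw p under 0.05 (limma), and such short lists give no firm share to compare. The epithelial markers Krt8, which SAM called, and Krt5 differed by 0.74 and 0.27 (limma, adjusted p = 0.0583 and 0.124). The neural marker Tubb3, one of those SAM called, differed by -0.52 (limma, adjusted p = 0.12), and Map2 by 0.31 (limma, adjusted p = 0.0969). The leukocyte markers Cd68 and Cd3e differed by -0.36 and -0.17 (limma, adjusted p = 0.109 and 0.352). In shSCR and shARF in turn, the summed epithelial signal was 275 to 313 and 379 to 519.7, the neural sum 609 to 650.5 and 745 to 781, and the leukocyte sum 161 to 173 and 161 to 179. The call of Nefl held without any 1 array, that of Krt18 only without shARF replicate 2, and that of Cd53 in none of the 6 fits. The epithelial marker Cdh1 and the leukocyte markers Ptprc, Csf1r, Adgre1, Itgam and Lyz2 were not detected on 3 or more arrays. Endothelial, muscle, and cartilage and bone markers held 0 calls in limma among 6, 5 and 4 tested, and 0 in SAM, with 1, 1 and 0 at an unadjusted p under 0.05. Their summed signals overlapped between the groups. Those with the smallest p were Cdh5 and Vwf (0.32 and -0.11 on the log2 scale), Tnnt3 and Myog (0.23 and -0.14), and Sp7 and Sox9 (0.17 and 0.12). The part of these marker differences in the values of Sulf2, Ndst3, Gpc1 and Extl2 was not tested.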

How the data were processed

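RNA of 6 samples was read on Affymetrix gene-level arrays. Each probeset has 1 deposited intensity per array, not in log units. The authors made these intensities with RMA in Affymetrix Expression Console, per the submitters' processing notes, from core probesets, per the design text; versions and the genome build are not given in the sources used here. RMA's quantile step hides a change shared by most genes, and folds of dim genes may be smaller than the true change. Arrays give no read depth, so precision rests on having 3 arrays in each group. Array medians were 41.97 to 42.86.

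Values were turned to log2. Of 26851 probesets, 21056 carried 1 gene symbol in the platform annotation; those with several or none were not named. A probeset was tested if above the 25th percentile on at least 3 arrays (20310 probesets). The test was two-sided, with lmFit and eBayes of limma 3.58.1 (R 4.3.3), adjusted by Benjamini-Hochberg across the tested probesets, and 0.05 was the threshold. Values are mean ± SD of the linear signal, or the log2 difference ± SE. The 95% intervals use limma's moderated SE. No member shared its 6 values with another probeset. The fit was tested on simulated data: 100 of 100 genes changed by 0.5 on the log2 scale and 100 of 100 changed by 1 were recovered, with 5 false calls among 20310 simulated probesets that all varied alike, unlike real genes.

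Alternatives were other presence filters, renormalization, an offset, a variance trend, a replicate block, leaving out each array, and a SAM statistic over all 20 label assignments. The SAM statistic was re-implemented, so its calls may differ from those of the authors' software. The members and lists were chosen with earlier results of these data known. All members are named. The lists give their called genes, or otherwise up to 2 with the smallest p, and some further genes that did not pass. Ndst1 and some list genes were not analysed here. The replicate numbers were checked for pairing, and the check did not show it. Columns of other samples numbered 0. Chromosome names, promoters and starts come from RefSeq, assembly GRCm38.p6.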

Additional observations from a re-analysis of the deposited data

How the results depend on the processing

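Of the values of the 33 tested members under the alternatives, 419 kept their direction and their side of the threshold, 16 passed where they had not, 16 no longer passed and 9 changed sign. All 9 changes of sign came from leaving out 1 array, in genes that did not pass with all 6. The ranges of the log2 difference with 1 array left out were -0.0498 to 0.146 for Glce, -0.0584 to 0.140 for Hs3st2, -0.140 to 0.0948 for Hpse, -0.0923 to 0.0200 for Sdc1, -0.0119 to 0.0276 for Sdc2 and, among the markers, -0.264 to 0.0547 for Myog. The count of 4 called members was 8 in SAM, 7 with log2 of the value plus 16, 9 with a variance trend and robust prior, and 2 with no presence filter. It was 1 to 3 with 1 array left out. It was 1 without shSCR replicate 1 or shSCR replicate 3, and 2 without shARF replicate 1. The count of 607 called genes was 997 in SAM, 978 with the offset, 1281 with the trend and 372 with no presence filter, and 150 to 330 with 1 array left out. Fits with an array left out have fewer samples; the cause of the other shifts was not tested.

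The replicate numbers were not taken as pairing the samples, since same-numbered arrays correlated in their deviations from the group means at 0.08, 0.05 and 0.00062. Arrays with different numbers correlated at -0.14 to 0.09, and the same-numbered values lay within that range. With the replicate block 336 genes and 3 members were called: Sulf2 and Extl2 (limma, adjusted p = 0.00768 and 0.0422) and also Agrn (limma, adjusted p = 0.0148), while Ndst3 and Gpc1 were not (limma, adjusted p = 0.117 and 0.0641). No member had another single-gene probeset, so that alternative gave no value. Low signals limit Ndst4, which lay below the detection level, and Hs3st5, which lay near it.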
